A study of Mus musculus with 2 samples.

Results

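Immediate early genes were examined in the immune cells of B16-OVA melanomas from control and creatine-treated mice. The set held 10 genes, taken by name from the 31053 genes of the matrices: *Fos*, *Fosb*, *Jun*, *Junb*, *Egr1*, *Atf3*, *Ier2*, *Nr4a1*, *Dusp1* and *Zfp36*. All 10 were present in both matrices. C57BL/6J mice aged 8 to 12 weeks carried subcutaneous B16-OVA tumors, a melanoma line that expresses the model antigen ovalbumin, and received either PBS (control) or 10.5 mg of creatine per day intraperitoneally (creatine). The tumors of a group were pooled (4 by the labels and methods, 5 mice by a legend) and harvested on day 14 by the labels, day 10 by the isolation methods. Living CD45.2+ cells were sorted, and 10000 were loaded for 1 droplet single-cell RNA sequencing library per group. The protocol entry of the control library describes a creatine injection, while its title and treatment label give it as untreated. The latter were followed, and every ratio rests on this. With 1 library per group there are no replicates and no test of treatment was possible. All intervals are exact 95% intervals that cover counting error only, and the treatment cannot be told apart from the preparation of a library.

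Immediate early genes are transcribed within minutes of a stimulus without new protein synthesis. Mitogen-activated protein kinases, calcium and cyclic AMP activate factors that already sit in the cell, such as SRF and CREB, and these switch the genes on. *Fos*, *Fosb*, *Jun* and *Junb* encode subunits of the dimeric transcription factor AP-1, *Egr1* a zinc finger factor, *Atf3* a stress-induced factor of the CREB family and *Nr4a1* an orphan nuclear receptor that T cells induce after antigen receptor engagement. *Dusp1*, a phosphatase of mitogen-activated protein kinases, and *Zfp36*, a protein that destabilises cytokine mRNAs, act as feedback. *Ier2* encodes a nuclear protein. The same genes are known to be induced when tissue is torn apart into single cells, so levels in sorted tumor cells can hold signals received in the tumor and signals received afterwards. The methods describe mechanical meshing through strainers and a Percoll spin at room temperature and name no enzyme.

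The sequences in front of the start sites show the elements through which such signals are read. Promoters of 8 of the 10 genes were examined (RefSeq, GRCm38). Those of *Egr1* and *Ier2* were not, so the counts below do not cover these genes. Shown are the 250 bases before the start of *Fos* and *Nr4a1*, the genes used below to split cells, of *Dusp1*, which holds a full cyclic AMP response element, and of *Zfp36*, which holds a CArG box, the element bound by SRF. Capitals mark TGACG on either strand (the short form of the cyclic AMP response element), TGACGTCA (the full element, which contains the short form on both strands), TATAAA and the CArG box.
Fos, chr12:85473640-85473889, plus strand: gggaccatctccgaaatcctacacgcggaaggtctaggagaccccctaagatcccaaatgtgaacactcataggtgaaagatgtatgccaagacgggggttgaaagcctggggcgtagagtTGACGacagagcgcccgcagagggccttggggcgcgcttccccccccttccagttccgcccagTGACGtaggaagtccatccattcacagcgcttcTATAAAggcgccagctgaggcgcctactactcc
Nr4a1, chr15:101266596-101266845, plus strand: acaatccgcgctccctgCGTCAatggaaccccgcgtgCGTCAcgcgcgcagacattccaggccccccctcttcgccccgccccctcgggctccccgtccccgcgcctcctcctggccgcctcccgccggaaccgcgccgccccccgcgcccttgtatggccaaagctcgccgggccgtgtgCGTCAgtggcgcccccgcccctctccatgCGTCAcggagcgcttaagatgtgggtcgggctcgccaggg
Dusp1, chr17:26508473-26508722, minus strand: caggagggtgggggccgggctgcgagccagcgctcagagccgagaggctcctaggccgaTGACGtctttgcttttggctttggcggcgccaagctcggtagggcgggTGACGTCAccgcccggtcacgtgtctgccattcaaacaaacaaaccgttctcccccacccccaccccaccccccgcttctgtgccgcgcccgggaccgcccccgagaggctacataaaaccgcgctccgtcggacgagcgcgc
Zfp36, chr7:28379229-28379478, minus strand: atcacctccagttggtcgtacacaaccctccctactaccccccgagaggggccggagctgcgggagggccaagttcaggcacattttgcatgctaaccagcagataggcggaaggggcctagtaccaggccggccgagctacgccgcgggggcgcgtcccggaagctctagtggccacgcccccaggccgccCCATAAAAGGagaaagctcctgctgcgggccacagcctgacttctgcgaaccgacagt
In windows of 250 bases before to 50 after the start, TGACG was in 6 of the 8 promoters (*Fos*, *Fosb*, *Junb*, *Atf3*, *Nr4a1* and *Dusp1*) and in 20.8% of all 32851 promoters. The full element TGACGTCA was in 1 of the 8 and in 1.79% of all. The CArG box was in 1 of the 8 and in 1.63% of all, and TATAAA in 2 of the 8 (*Fos* and *Junb*) and in 13.6% of all. The AP-1 site, TGANTCA, was in 0 of the 8 and in 7.81% of all. A kappaB site was in 3 of the 8 (*Fos*, *Fosb* and *Nr4a1*) and in 4.51% of all. Both strands were searched, and elements outside these windows were not examined.

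Cells were kept with at most 25% mitochondrial UMIs (unique molecular identifiers, which count captured mRNA molecules), 7241 of 7649 in the control and 6229 of 6503 in the creatine library. Median depth was 7688 and 8475 UMIs per cell. Cell types were gated on the presence and absence of UMIs of marker genes, and 7 of 15 gates held at least 50 cells in both libraries. These were CD8 T cells, conventional CD4 T cells (CD4 Tconv), regulatory T cells (Tregs), NK cells, macrophages rich in complement C1q, classical monocytes and nonclassical monocytes. In each of the 7, all 5 check markers that the gate did not use were higher than in the other cells, in both libraries. Conventional dendritic cells (cDCs) were examined as a joined gate of cDC1, cDC2 and *Ccr7*+ DCs, 123 control and 66 creatine cells, a choice made after the cell numbers were seen. The gates left 35.5% and 28.0% of the kept cells unassigned, and 29 barcodes occurred among the kept cells of both libraries. Levels are counts per 1000000 UMIs of the gate (CPM). They are compared between gates and libraries, not between genes.

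The summed level of these genes differed far more between cell types than between libraries. Single genes did not all follow: *Fosb* spanned 1.47-fold over the creatine gates and differed 1.62-fold between libraries in Tregs. Summed over the 10 genes, control nonclassical monocytes held 3052 CPM (interval 2941 to 3167), and control CD8 T cells held 489 (481 to 497). In the creatine library the same sums were 3018 (2961 to 3077) and 547 (538 to 555). The highest gate was thus 6.24 and 5.52 times the lowest, and within one of these 7 gates the libraries differed by 1.46-fold at most. The order of the 7 gates was the same in both libraries: nonclassical monocytes, classical monocytes, C1q macrophages, Tregs, CD4 Tconv, NK cells and CD8 T cells, with overlapping intervals only between Tregs and CD4 Tconv. The joined cDCs, at 1073 CPM (1025 to 1124), were below the C1q macrophages (1374, 1351 to 1397) in the control. At 1582 (1503 to 1664) they were above them (1377, 1346 to 1408) in the creatine library.

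**Figure D1:**
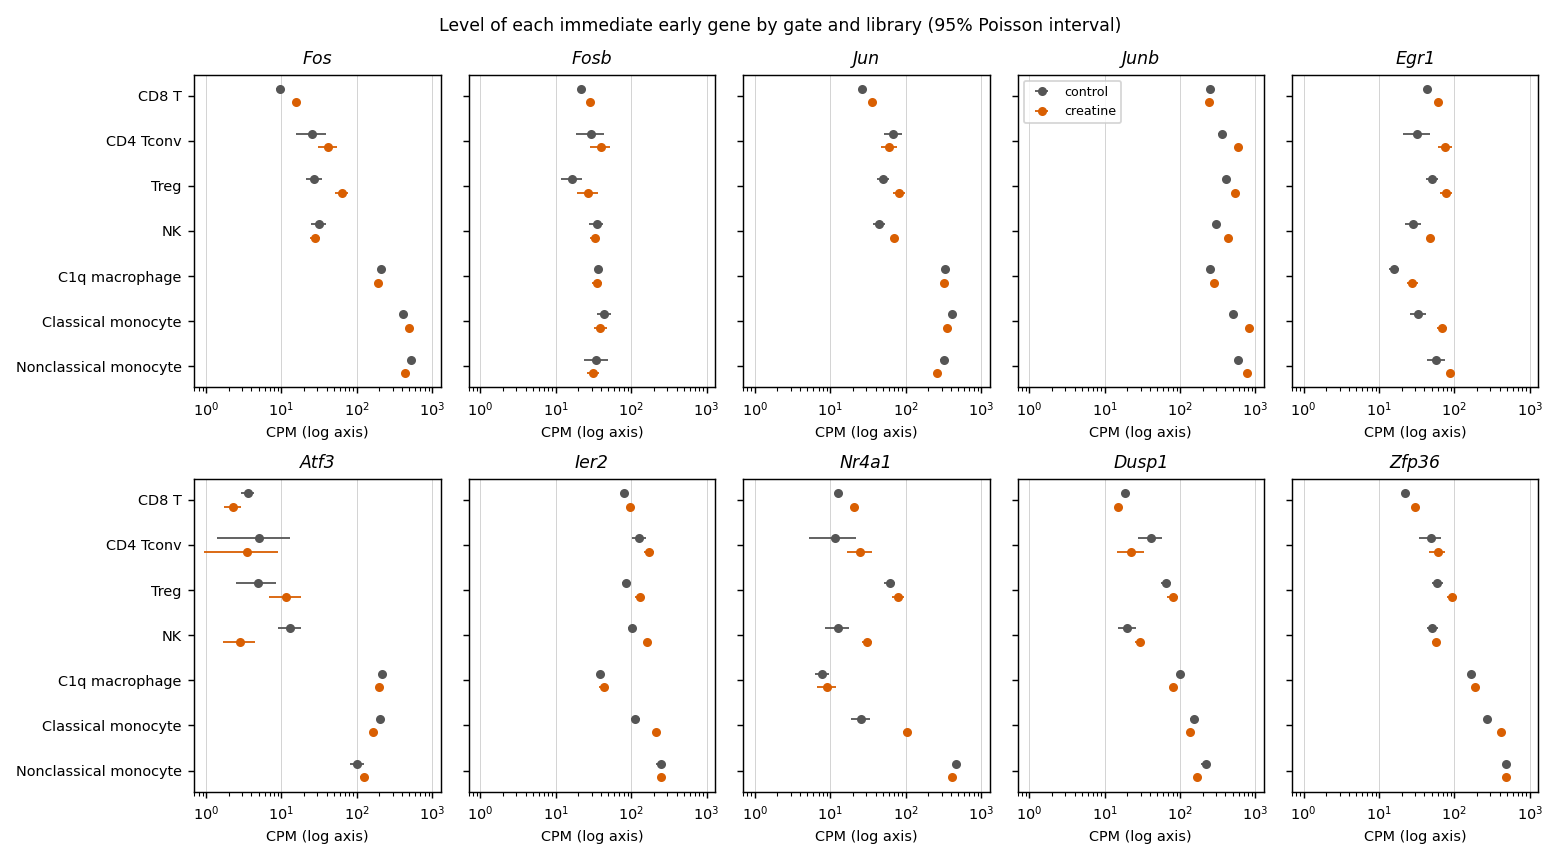
Level of each of the 10 genes (CPM, log axis) in the 7 gates, with 1 point per library and bars for the exact 95% Poisson interval. *Fos*, *Atf3* and *Zfp36* are higher in the 3 myeloid gates than in the 4 lymphocyte gates. *Fosb* spans 2.64-fold over the control gates and 1.47-fold over the creatine gates. *Nr4a1* is at 465 and 410 CPM in nonclassical monocytes against 7.85 and 9.04 in C1q macrophages.

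The genes did not share a single pattern over the cell types. *Fos* was at 522 CPM in control nonclassical monocytes and at 9.68 in control CD8 T cells, a ratio of 53.9. In the creatine library *Fos* was at 497 CPM in classical monocytes, its highest gate there, and at 15.5 in CD8 T cells. *Jun*, *Zfp36* and *Dusp1* also separated myeloid cells from lymphocytes, with highest to lowest ratios in the control library of 15.6, 22.1 and 11.7. *Dusp1* was the least sharp of them: creatine Tregs, at 80.1 CPM, overlapped creatine C1q macrophages, at 80.6. *Atf3* was at 213 and 200 CPM in C1q macrophages, 203 and 163 in classical monocytes and 101 and 123 in nonclassical monocytes, but at 13 or less in every lymphocyte gate.

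*Nr4a1* followed a different map. It was at 465 CPM (422 to 511) in control and 410 (389 to 431) in creatine nonclassical monocytes, a cell type known to depend on this receptor for its development. C1q macrophages held 7.85 (6.22 to 9.79) and 9.04 (6.71 to 11.9), the lowest of the 7 gates in both libraries, with an interval that overlapped that of CD4 Tconv (11.5) in the control. Tregs stood above the other lymphocytes, at 61.6 and 79.4 CPM, against 12.8 and 20.8 in CD8 T cells. *Egr1* and *Ier2* were lowest in C1q macrophages too. *Egr1* there was at 15.8 and 27.8 CPM, against 43.0 and 61.5 in CD8 T cells, and *Ier2* was at 38.9 and 43.2, against 79.9 and 96.5. C1q macrophages were thus among the gates with much *Fos*, *Jun* and *Atf3* and had the least *Egr1*, *Ier2* and *Nr4a1*. *Fosb* went from 16.5 CPM (11.9 to 22.4) in Tregs to 43.6 (35.0 to 53.7) in classical monocytes of the control library, a ratio of 2.64. In the creatine library its highest to lowest ratio was 1.47. Every pair of neighbours in its order overlapped, while the ends of the control order were apart.

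Across the 14 profiles (7 gates in 2 libraries, which share library and depth within a gate), the log2(CPM + 1) levels of *Fos*, *Jun*, *Atf3*, *Dusp1* and *Zfp36* went together, with Pearson's r from 0.837 to 0.988. *Junb*, *Egr1*, *Ier2* and *Nr4a1* formed another group, with r from 0.679 to 0.830. Between the groups r ranged from -0.271 (*Egr1* with *Atf3*) to 0.658 (*Junb* with *Zfp36*). Of 11711 other genes compared over these profiles, the profile most like the sum of the 10 was that of *Kdm6b*, a histone H3 lysine demethylase (r = 0.988). *Rhoa*, a small GTPase that controls actin (0.978), *Nhsl2* (0.977), *Tmem184b* (0.973), *Crk*, a signaling adaptor (0.973), *Flna*, an actin crosslinker (0.973), *Bin3* (0.972), *Spop* (0.971), *H3f3a*, which encodes histone H3.3 (0.970), and *Brk1* (0.967) came next. These correlations describe profiles that differ mainly in cell type.

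Single cells were compared after each was thinned to 2000 UMIs, with shallower cells left out (between 3 and 71 per gate and library). Most CD8 T cells held a UMI of 1 or none of the 10 genes: none were found in 45.9% of control and 39.8% of creatine cells. In nonclassical monocytes none were found in 1.44% and 0.792%. At least 3 of the 10 were found in 79.9% (72.2 to 86.2) of control and 74.4% (69.7 to 78.7) of creatine nonclassical monocytes. In CD8 T cells that share was 4.10% (3.34 to 4.98) and 6.68% (5.62 to 7.87). Classical monocytes differed most between the libraries, from 49.3% (42.5 to 56.2) to 70.2% (64.5 to 75.5), and NK cells went from 8.27% (6.05 to 11) to 13.1% (11.1 to 15.5). In C1q macrophages the intervals overlapped, at 37.4% and 38.1%. No cell type in the tumor is known to lack these genes altogether, so no share could be set against a type that lacks them.

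**Figure D2:**
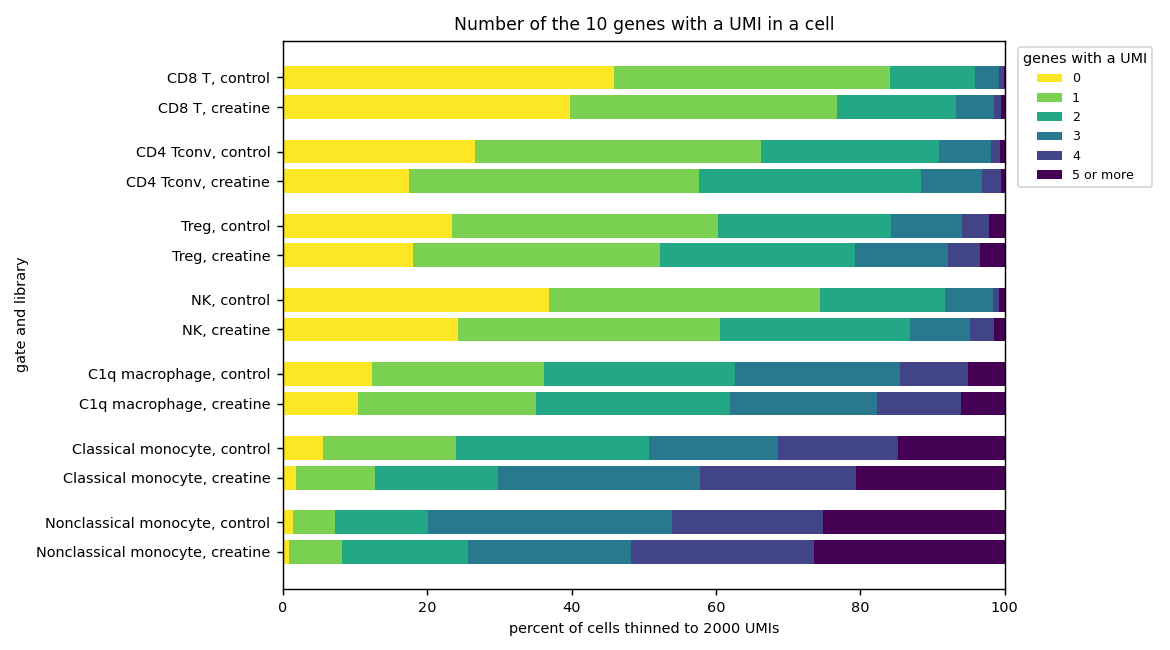
Percent of cells, each thinned to 2000 UMIs, by how many of the 10 genes had a UMI, with a bar per gate and library. Cells with none make up 45.9% and 39.8% of CD8 T cells but 1.44% and 0.792% of nonclassical monocytes.

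Set against the control, the creatine library held more of the 10 genes in T cells, NK cells, classical monocytes and cDCs and about the same in C1q macrophages and nonclassical monocytes. The log2 ratio of the sums was 0.55 (0.40 to 0.69) in CD4 Tconv, 0.53 (0.44 to 0.62) in Tregs, 0.48 (0.40 to 0.56) in NK cells and 0.39 (0.33 to 0.44) in classical monocytes. It was 0.16 (0.13 to 0.19) in CD8 T cells, where cells with fewer than 2 UMIs of dividing cell genes gave 0.52, and 0.56 (0.46 to 0.66) in the joined cDCs. In C1q macrophages it was 0.00 (-0.04 to 0.04) and in nonclassical monocytes -0.02 (-0.08 to 0.04). *Junb* weighed heavily in the lymphocyte sums, with 7707 of 15004 UMIs in control CD8 T cells and 2715 of 5629 in creatine NK cells. In control nonclassical monocytes it held 553 of 2829. A gene was called higher or lower in a gate when its CPM differed at least 1.5-fold, among genes with at least 20 UMIs over both libraries. Over the 7 gates, 69 of 70 combinations of gene and gate could be compared, with *Atf3* in CD4 Tconv (4 and 4 UMIs) too rare. Of the 69, 24 were called higher and 3 lower, and 46 lay above a log2 ratio of 0.

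The count of called genes differed between the gates and is given beside that over all genes. In CD8 T cells 2 of the 10 were higher and 1 lower, while 5.04% of 12606 genes were higher and 6.48% lower. In CD4 Tconv 4 of 9 were higher and 1 lower (all genes 9.18% and 9.99%). In Tregs 7 of 10 were higher and 0 lower (9.12% and 6.96%), but with each cell weighted equally only *Jun* and *Ier2* stayed past the limit, 2 of the 7, and the summed ratio was 0.30. In NK cells 4 were higher and 1 lower (5.89% and 6.22%). The myeloid gates split in the same way as the sums did. In C1q macrophages 1 was higher and 0 lower (4.41% and 6.46%), and in nonclassical monocytes 1 and 0 (9.69% and 9.35%). In classical monocytes 5 were higher and 0 lower (10.9% and 11.9%), and in the joined cDCs 5 and 0 (10.2% and 12.1%). Of the 5 in classical monocytes, 2 (*Egr1* and *Nr4a1*) stayed past the limit in cells with fewer than 2 UMIs of dividing cell genes. Over the 10 genes, log2 ratios had a median of 0.65 in Tregs, 0.53 in NK cells, 0.45 in classical monocytes and 0.62 in cDCs, where the median over all genes was between 0.02 and 0.05. The median was 0.41 in CD8 T cells (all genes 0.04), 0.44 in CD4 Tconv (-0.01), 0.05 in C1q macrophages (0.01) and -0.08 in nonclassical monocytes (-0.01).

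**Figure D3:**
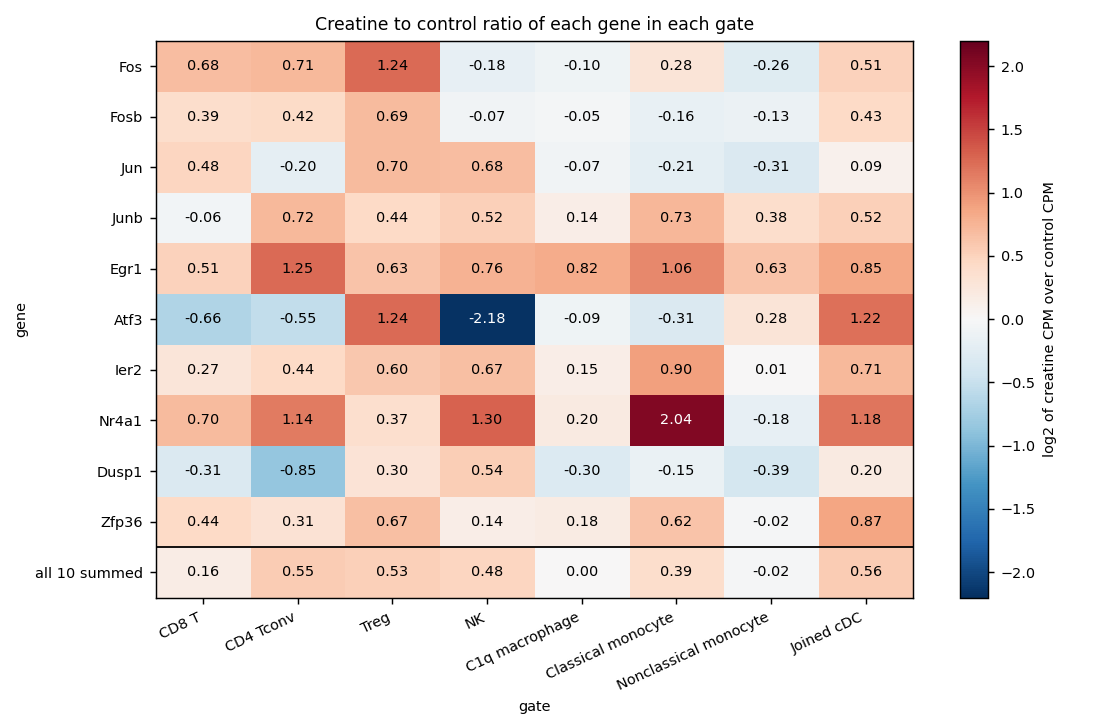
log2 ratio of creatine to control CPM for the 10 genes and their sum (rows) in the 7 gates and the joined cDCs (columns), with red for higher and blue for lower in creatine. *Egr1* is above 0 in every column, and *Atf3* in CD4 Tconv rests on 4 and 4 UMIs.

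*Egr1* was higher in the creatine library in all 7 gates, each with an interval above 0, and was called in 6. It went from 15.8 (13.4 to 18.5) to 27.8 CPM (23.6 to 32.6) in C1q macrophages, where no other gene of the set was called. In nonclassical monocytes it went from 57.2 to 88.4 CPM (log2 ratio 0.63, but 0.51 without the 6% of cells with the most UMIs and 0.53 with equal weights), in classical monocytes from 32.9 to 68.6 and in NK cells from 28.4 to 48.0. CD4 Tconv showed the widest step, from 31.9 to 75.7 CPM (log2 ratio 1.25, 0.59 to 1.95), and CD8 T cells a smaller one, from 43.0 to 61.5 (0.51, 0.41 to 0.62). The share of thinned cells with a UMI of *Egr1* was higher in the creatine library in all 7 gates, for example 6.06% against 1.98% in C1q macrophages (19.2% and 11.7% without thinning) and 6.73% against 3.27% in NK cells (13.7% and 7%). The intervals of the share were apart in CD8 T and NK cells alone and overlapped in the other 5 gates, with 8.39% and 8.99% in Tregs. With each cell weighted equally the Treg ratio of *Egr1* turned to -0.18. A single creatine Treg held 31 of the 123 UMIs.

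*Nr4a1* had the largest higher ratio of the set. In classical monocytes it went from 25.5 CPM (19 to 33.4) to 105 (93.5 to 118), a log2 ratio of 2.04 (1.61 to 2.50), and the share of thinned cells from 4.61% to 17.0% (11.6% to 39.9% without thinning). Markers of nonclassical monocytes moved with it in that gate. Summed over *Cx3cr1*, *Pou2f2*, *Treml4*, *Spn* and *Itgal* they went from 323 to 756 CPM (log2 ratio 1.23), and all 5 were higher, by 0.78 to 1.77. The classical marker *Ly6c2* was higher too (1046 to 1774 CPM) and *Vcan* lower (255 to 142). Of the genes of dividing cells, 6 of 6 measured were called lower (all genes 11.9%). Among classical monocytes without a UMI of these 5 genes, 59 control and 17 creatine cells, the *Nr4a1* ratio was 0.55 and no longer called, and *Fos* was at -0.24 and *Atf3* at 0.70. The part of nonclassical monocytes, or of cells between both states, in the result was not tested. *Nr4a1* was also called in NK cells (12.6 to 31.0 CPM), CD4 Tconv (11.5 to 25.2, from 9 and 29 UMIs) and CD8 T cells (12.8 to 20.8, log2 ratio 0.70, 0.51 to 0.88). In cells with fewer than 2 UMIs of dividing cell genes the ratio was 2.39 in CD8 T cells (509 and 415 cells) and 0.24, no longer called, in CD4 Tconv. In nonclassical monocytes, where it was abundant, it was at -0.18 (-0.34 to -0.02).

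Among the AP-1 subunits, *Junb* was higher in nearly all gates, while the ratios of *Fos*, *Jun* and *Fosb* changed sign between gates. *Fos* went from 9.68 to 15.5 CPM in CD8 T cells, from 25.5 to 41.8 in CD4 Tconv and from 27.0 to 63.6 in Tregs, and was called in these 3 gates, although the CD4 Tconv interval held 0 (-0.07 to 1.54). With each cell weighted equally the call ended in CD4 Tconv (0.14) and in Tregs (0.45), where 1 creatine cell held 21 of the 100 UMIs. Its log2 ratio was -0.18 in NK cells, -0.10 in C1q macrophages, 0.28 in classical monocytes and -0.26 in nonclassical monocytes. *Jun* was called in Tregs (50.4 to 82.0 CPM, but 0.52 with stricter gates) and NK cells (44.5 to 71.1, but 0.55 in cells with few dividing cell UMIs), and was at -0.31 (-0.51 to -0.12) in nonclassical monocytes. *Junb* was above a ratio of 0 in 6 of 7 gates and called in CD4 Tconv (361 to 594 CPM) and classical monocytes (502 to 836, but 0.36 in cells with few dividing cell UMIs). In CD8 T cells it was at 251 and 240 CPM (-0.06), a direction that turned in cells with few dividing cell UMIs (0.45) and with equal weights (0.17), and the share of thinned cells was higher in the creatine library (36.4% against 30.3%). *Fosb* was called in Tregs alone, from 16.5 to 26.7 CPM with 41 and 42 UMIs, and that ratio too turned to -0.18 with equal weights for cells.

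*Ier2* was above a ratio of 0 in all 7 gates and called in Tregs (85.8 to 130 CPM), NK cells (103 to 164) and classical monocytes (114 to 214). The call ended in Tregs with TMM scaling (0.54), and in classical monocytes without a nonclassical marker (0.43) or with few dividing cell UMIs (0.56). The feedback genes went apart. *Zfp36* was above 0 in 6 of 7 gates and called in Tregs (59.2 to 94.1 CPM) and classical monocytes (273 to 419). These calls ended in cells with few dividing cell UMIs (0.06 in Tregs, 0.43 in classical monocytes), with equal weights (0.22 and 0.56) and in classical monocytes without a nonclassical marker (0.34). *Dusp1* was below 0 in 5 of 7, with intervals below 0 in CD8 T cells (18.7 to 15.1 CPM), CD4 Tconv (40.8 to 22.6), C1q macrophages (98.9 to 80.6) and nonclassical monocytes (219 to 167). It was called lower in CD4 Tconv alone (-0.85, but -0.35 in cells with few dividing cell UMIs). *Dusp1* shares its strand with 2 annotated genes that overlap it, and *Junb* and *Jun* overlap genes on the other strand.

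In the joined cDCs, the cell type at the centre of the study, *Atf3* went from 46.1 CPM (36.5 to 57.4) to 107 (87.3 to 130) and *Nr4a1* from 13.4 to 30.4. *Zfp36* went from 140 to 256, *Ier2* from 72.9 to 120 and *Egr1* from 19.8 to 35.7 CPM, all 5 called. *Jun* and *Dusp1* had intervals that held 0, at 0.09 (-0.19 to 0.36) and 0.20 (-0.25 to 0.65). Dividing cell genes were lower in the same gate, 7 of 8 called (all genes 12.1%), and cDC subsets took different shares of it (51 of 123 control and 39 of 66 creatine cells were cDC1). Their part in these ratios was not tested. In cDC1 alone, 51 control cells and 39 creatine cells (below the minimum of 50), *Atf3* was at 41.3 and 74.0 and *Zfp36* at 108 and 217 CPM. In cells with fewer than 2 UMIs of dividing cell genes, only 20 control and 12 creatine cDCs, the *Atf3* ratio was -0.52.

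*Atf3* in lymphocytes stood at only 1.13 to 6.10% of its level in C1q macrophages. It was set beside macrophage genes, whose RNA in lymphocytes could be free RNA. The comparison used 5 macrophage genes that lymphocytes are known to lack, *Apoe*, *C1qa*, *C1qb*, *C1qc* and *Ms4a7*. In control CD8 T cells they stood at 0.665 to 1.23% of their level in C1q macrophages, and *Atf3* stood at 1.68%. In creatine CD8 T cells the 5 genes stood at 0.304 to 0.493% and *Atf3* at 1.13%. *Fos* stood at 4.64% and 7.95%, *Zfp36* at 13.5% and 16.3%, and *Egr1*, *Ier2* and *Nr4a1* were more abundant in CD8 T cells than in macrophages. *Atf3* was called lower in the creatine library in CD8 T cells (3.58 to 2.27 CPM) and NK cells (13 to 2.86), and the macrophage genes were lower there as well. The CD8 T call ended with stricter gates (-0.33) and in cells with few dividing cell UMIs (-0.37). In NK cells they went from 1.73 to 2.74% of the macrophage level down to 0.353 to 0.719%, and *Atf3* from 6.10% to 1.43%. A single control NK cell held 12 of the 33 *Atf3* UMIs. In Tregs *Atf3* was called higher (4.83 to 11.4 CPM) on 12 and 18 UMIs, 7 of the latter in 1 cell. It stood there at 2.27% and 5.71% of its macrophage level, against 0.655 to 1.47% and 0.249 to 0.594% for the 5 genes. With equal weights the ratio was 0.22, and the share of thinned cells went the other way, from 1.82% to 1.12%, so no order is read from it. *Lyz2*, a macrophage gene also measured, is not among the 5. It went from 0.824 to 0.636% of its macrophage level in CD8 T cells and from 1.44 to 0.697% in NK cells. In Tregs it was higher in the creatine library, at 0.890 and 1.39%, unlike the 5 genes. *Atf3* was also at 203 and 163 CPM in classical and 101 and 123 in nonclassical monocytes. The 5 genes therefore do not give the *Atf3* level that free RNA would leave. The part of free RNA in the *Atf3* ratios was not tested.

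The levels were next set beside genes of other stimuli, to describe where signs of dissociation stress and of receptor signaling went with the 10 genes. The lists held 14 heat shock genes, 18 genes induced through the T cell receptor and 15 genes induced by NF-kappaB. They were chosen from general knowledge, but with earlier results of these data known. In the heat shock list, at most 2 genes were called higher and at most 3 lower in any gate. In CD8 T cells 0 of the 13 measured were called higher and 3 lower (all genes 5.04% and 6.48%), with a median log2 ratio of 0.03. In CD4 Tconv 0 of 12 were higher and 3 lower (9.18% and 9.99%, median -0.13). In Tregs 2 of 13 were higher and 2 lower (9.12% and 6.96%, median -0.12). NK cells had 1 and 1 (5.89% and 6.22%, median 0.24, all genes 0.04). Classical monocytes had 0 and 0 of 13 (10.9% and 11.9%, median -0.03), and nonclassical monocytes 0 and 1 of 12 (9.69% and 9.35%). C1q macrophages had 0 and 1 of 13 (4.41% and 6.46%), and the joined cDCs 0 and 2 of 11 (10.2% and 12.1%). Summed, the list went from 5702 to 5525 CPM in CD8 T cells and from 5145 to 4735 in Tregs, but from 3557 to 4074 in NK cells and from 4537 to 4859 in the joined cDCs, where the 10 genes were higher too. *Hspa1a* and *Hspa1b*, near-identical heat-inducible chaperone genes whose reads are counted here as a sum, were lower in the creatine library in CD8 T cells, with 394 UMIs in 120 control and 180 UMIs in 40 creatine cells (12.8 to 6.09 CPM, log2 ratio -1.08). In nonclassical monocytes they went from 31.3 to 5.72 CPM. In the joined cDCs they went from 58.9 to 2.10, with 39 of the 101 control UMIs in 1 cell. In Tregs they went from 64.9 to 21.0, but 1 control Treg held 155 of the 161 UMIs. In NK cells (-0.08) and classical monocytes (-0.05) their intervals held 0. However, 1 creatine classical monocyte held 101 of the 161 creatine UMIs of that gate, and 1 creatine NK cell 20 of 54.

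In the T cell receptor list, the higher sum in creatine CD8 T cells came from 3 genes. Summed, the list went from 3348 to 5685 CPM, with 5 of 18 called higher and 1 lower (all genes 5.04% and 6.48%). The median log2 ratio was 0.30. The chemokine genes *Ccl3* (1004 to 1968 CPM) and *Ccl4* (1162 to 2292) and the effector cytokine gene *Ifng* (293 to 563 CPM) accounted for the whole difference. The other 15 genes of the list summed to 889 and 862 CPM (-0.05, -0.07 to -0.02). In CD4 Tconv 6 of 16 were higher and 4 lower (all genes 9.18% and 9.99%), and in Tregs 4 of 15 and 1 (9.12% and 6.96%). NK cells had 0 and 2 of 15 (5.89% and 6.22%). Myeloid cells, which lack this receptor, also held called genes of the list. Nonclassical monocytes had 6 higher and 0 lower of 11 (9.69% and 9.35%, summed 228 to 439 CPM). The joined cDCs had 5 and 4 of 12 (10.2% and 12.1%, 314 to 672 CPM). Classical monocytes had 2 and 2 of 12 (10.9% and 11.9%) and C1q macrophages 2 and 8 of 16 (4.41% and 6.46%). Summed, the NF-kappaB list was higher in the creatine library in every gate but CD8 T cells (794 to 657 CPM). It went from 1184 to 1360 CPM in CD4 Tconv, 1543 to 1795 in Tregs and 901 to 1043 in NK cells. In classical monocytes it went from 1755 to 2071 CPM, with 6 of 15 called higher and 1 lower (all genes 10.9% and 11.9%). Nonclassical monocytes had 5 and 2 (9.69% and 9.35%) and C1q macrophages 4 and 1 (4.41% and 6.46%). CD4 Tconv had 2 and 0 of 12 (9.18% and 9.99%), Tregs 0 and 3 of 15 (9.12% and 6.96%) and NK cells 1 and 2 of 13 (5.89% and 6.22%). In CD8 T cells 0 of 15 were higher and 3 lower (5.04% and 6.48%). Of 24 upstream kinases and factors, 0 were called in CD8 T cells (all genes 5.04% and 6.48%) or C1q macrophages (4.41% and 6.46%). In each of CD4 Tconv (9.18% and 9.99%), Tregs (9.12% and 6.96%) and classical monocytes (10.9% and 11.9%) 2 were higher and 1 lower. These counts are not above the shares over all genes. Other early response genes, 30 in all, had medians of at most 0.29 in the 7 gates. In CD8 T cells 4 were higher and 3 lower (all genes 5.04% and 6.48%). *Klf2*, a factor of quiescent and recirculating lymphocytes, was called higher in CD8 T cells (21.8 to 52.8 CPM), CD4 Tconv (135 to 380), Tregs (20.5 to 75.6) and NK cells (109 to 189).

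Within a library, CD8 T cells with a UMI of *Nr4a1* carried more RNA of the T cell receptor list than those without. Among thinned control CD8 T cells, the 47 with a UMI of *Nr4a1* held 11000 CPM of that list and the 2318 without held 2733, a log2 ratio of 2.01 (1.92 to 2.10). In the creatine library, 68 cells held 21088 CPM and 1908 held 4522 (2.22, 2.16 to 2.28). Heat shock genes differed less, by 0.48 (0.36 to 0.59) and 0.24 (0.13 to 0.34). The NF-kappaB list differed by 0.26 (-0.06 to 0.57) in the control and 0.87 (0.64 to 1.10) in the creatine library. The other 9 immediate early genes were higher by 0.94 and 1.17. Among creatine CD8 T cells with *Nr4a1*, *Ifng* was at 3000 CPM against 410, the chemokine gene *Xcl1* at 1103 against 179, and *Il2*, which encodes a T cell growth factor, had 30 UMIs against 11 in all other cells. *Nr4a3*, a relative of *Nr4a1*, was at 106 against 9.06 CPM in the control and 140 against 14.9 in the creatine library. *Tnfrsf9*, an activation marker, did not follow in the creatine library (243 against 248 CPM). The share of cells with *Nr4a1* was 1.99% (1.46 to 2.63) and 3.44% (2.68 to 4.34). Before thinning, CD8 T cells with a UMI of *Nr4a1* were deeper (medians of 17278.5 and 17939 UMIs against 9073 and 10946) and held no more of the 5 macrophage genes (107 against 151 and 54.1 against 67.6 CPM). The cells with it then numbered 206 and 279, so many were counted as without after thinning. The whole list was then at 6486 against 2856 CPM in the control and 9781 against 4597 in the creatine library. These are smaller differences than after thinning. Heat shock genes were at 7162 against 5473 and 6614 against 5236 CPM. Without *Ccl3* and *Ccl4*, the unthinned list was at 1998 against 1054 CPM in the control and 2507 against 1138 in the creatine library.

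Creatine NK cells showed the same for 36 cells with *Nr4a1*, with 6500 against 1795 CPM of the T cell receptor list (log2 ratio 1.86) and 0.17 (0.00 to 0.34) for heat shock. In the 23 control Tregs with *Nr4a1*, the NF-kappaB list was at 6957 against 1761 CPM (1.98) and the T cell receptor list at 9000 against 3442 (1.39). Fewer than 20 cells had *Nr4a1* in CD4 Tconv and C1q macrophages of either library. The same held for control NK cells, creatine Tregs and control classical monocytes, and no ratio was computed in any of these. Monocytes gave another picture. Of the monocytes, only the nonclassical ones had a ratio in both libraries, and their control interval for the T cell receptor list held 0. Nonclassical monocytes with *Nr4a1*, 74 control and 170 creatine cells, differed by -0.19 (-1.03 to 0.65) and 0.71 (0.39 to 1.04) for the T cell receptor list and by -0.33 and -0.08 for heat shock. Creatine classical monocytes with *Nr4a1* were at -0.80 (-1.40 to -0.25) for that list. Without thinning 69.7% of control and 74.4% of creatine nonclassical monocytes held *Nr4a1*, so part of those counted as without had lost it to thinning.

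A split on *Fos* gave smaller differences for the T cell receptor list in CD8 T cells than a split on *Nr4a1*. CD8 T cells with a UMI of *Fos*, 38 and 72 cells, were higher for the T cell receptor list by 0.34 (0.17 to 0.51) and 0.82 (0.73 to 0.90), and heat shock was at -0.15 (-0.31 to 0.01) and -0.01 (-0.12 to 0.10). Control NK cells with *Fos* were at 1.21 and creatine ones at -0.15 for the T cell receptor list. In C1q macrophages, the 215 and 72 cells with *Fos* were at 0.00 and 0.06 for heat shock, and the other 9 immediate early genes were at 0.06 (-0.08 to 0.21) and 0.17 (-0.08 to 0.40). For the T cell receptor list, C1q macrophages with *Fos* were at -0.55 (-0.82 to -0.28) and -0.60 (-1.03 to -0.20). Nonclassical monocytes with *Fos* were at -0.45 (-1.33 to 0.40) in the control and -1.41 (-1.80 to -1.03) in the creatine library. For the NF-kappaB list, classical monocytes with *Fos* were at -0.74 (-0.95 to -0.53) in the control but at -0.08 (-0.25 to 0.09) in the creatine library. *Fos* thus marked cells with more of the other genes of the set in CD8 T cells (0.86 and 1.04). In C1q macrophages the split cannot decide this. *Fos* was in 78.5% and 80.3% of them without thinning and in 35.5% and 31.2% after it. Many macrophages counted as without *Fos* had thus lost it to thinning. The same limit holds for monocytes, of which 69.0 to 86.5% held *Fos* without thinning.

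**Figure D4:**
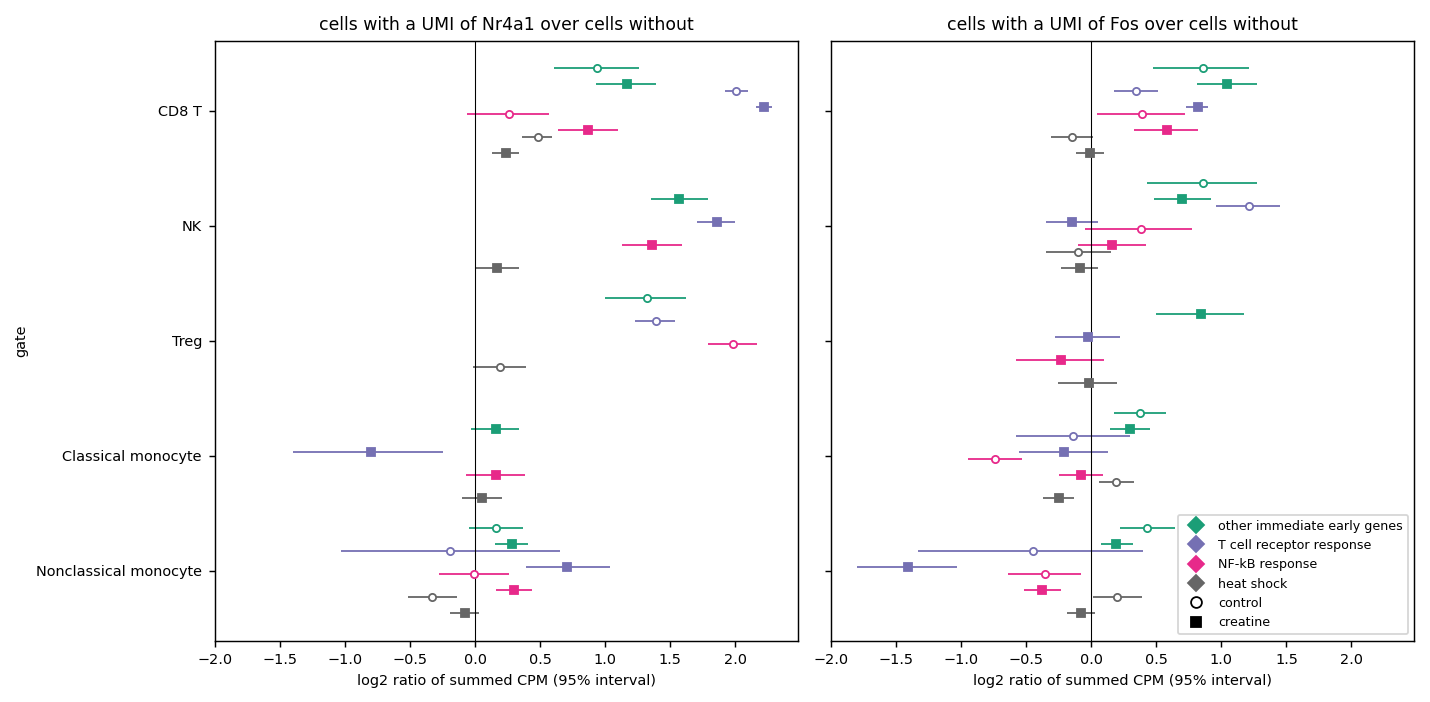
log2 ratio of the summed CPM of 4 gene lists in cells with over cells without a UMI of *Nr4a1* (left) or *Fos* (right), after thinning to 2000 UMIs, in 5 gates, with exact 95% intervals, open circles for control and filled squares for creatine. Splits with under 20 cells are not drawn. In CD8 T cells the T cell receptor list stands at 2.01 and 2.22 for *Nr4a1* and at 0.34 and 0.82 for *Fos*.

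In several gates, levels differed with the mitochondrial share of the cells, a sign of damage. Median mitochondrial shares in the 7 gates were 3.94 to 4.88% in the control and 3.72 to 4.95% in the creatine library. The sum of the 10 genes in control C1q macrophages was 1957 CPM in cells with up to 3% mitochondrial UMIs, 1446 between 3 and 5% and 1154 between 5 and 10%. In control NK cells it was 1057, 660 and 508 in the same ranges, and in creatine NK cells 1371, 910 and 733. Other gates differed: control CD4 Tconv held 642, 806 and 998 CPM in the ranges of 3 to 5, 5 to 10 and 10 to 25%, and creatine classical monocytes 2687, 2878 and 2795 up to 3, 5 and 10%. Creatine cells were above control cells of the same range in NK cells, and in C1q macrophages the libraries stood close, at 1446 and 1409 between 3 and 5%. Above 10% the sum was higher again, at 785 in control and 981 in creatine CD8 T cells, in cells of low depth (medians of 2205 and 3399 UMIs). Whether handling after harvest differed between the groups was not measured, and its part in the ratios was not tested.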

How the data were processed

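The authors deposited raw counts, the number of UMIs per gene and cell, for 1 library per group, made with the 10x 3′ kit and Cell Ranger 3.0.2 on mm10 (GRCm38). Their later aggregation and clustering were not used here. A cell was kept if its mitochondrial UMIs made up 25% or less, with minimums of 300 UMIs and 100 genes. No doublet caller was run, and cells that met several gates (14 control, 36 creatine) were left out. UMIs were summed per gate and library, which held between 784507 and 30694423 UMIs in the 7 gates, and scaled to CPM. Levels carry exact Poisson intervals, ratios exact conditional binomial intervals and shares Clopper-Pearson intervals, all at 95%. Only the ratio intervals were tested on simulated data. These data held Poisson counting error alone, so the test does not cover UMIs that cluster in single cells. With 1 library per group no test was made. A ratio was called at 1.5-fold (0.58 on the log2 scale) with at least 20 UMIs. Shares and splits used cells thinned to 2000 UMIs, with at least 20 cells on each side of a split.

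The genes, gates and lists were chosen with earlier results of these data known. The text names the 10 genes, list genes that lead a list or that a result turns on, and the 10 genes whose log2(CPM + 1) profile correlated most with the sum among genes with at least 100 UMIs. Alternatives changed the cell filter, gates, scaling, weighting of cells, call and thinning depth. The software was Python 3.11.15 with scipy 1.17.1, numpy 2.4.6 and pandas 2.3.3, matplotlib 3.10.9 for figures and edgeR 4.0.16 for TMM scaling alone.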

Additional observations from a re-analysis of the deposited data

Results flagged for a closer look

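The log2 ratio of *Atf3* between the libraries had opposite signs in different lymphocytes, -0.66 in CD8 T cells and -2.18 in NK cells against 1.24 in Tregs. With 1 library per group, the difference between cell types was not tested. These values rest on 110 and 67 UMIs in CD8 T cells, 33 and 18 in NK cells and 12 and 18 in Tregs. A single control NK cell held 12 of the 33 UMIs, and a single creatine Treg 7 of the 18. The Treg ratio was 0.22 with equal weights for cells, and the share of thinned Tregs with *Atf3* went from 1.82% to 1.12%. With stricter gates the CD8 T ratio was -0.33 and no longer called.

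Cells over the mitochondrial limit entered no comparison, 408 control and 274 creatine cells, with median depths of 1941.5 and 1680.5 UMIs. The 10 genes summed to 805 and 1099 CPM there, a log2 ratio of 0.45 (0.31 to 0.58). *Fos* was at 92.4 and 177 CPM, *Nr4a1* at 8.07 and 34.7 and *Atf3* at 39.5 and 12.4, while the heat shock list was at 3908 and 3207.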

How the results depend on the processing

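Of the 69 combinations of gene and gate, 24 were higher and 3 lower at 1.5-fold. A 2-fold limit left 7 higher and 1 lower. With each cell weighted equally, 17 were higher and 5 lower. The other alternatives gave 22 to 24 higher and 2 or 3 lower. Among called ratios, signs turned for *Fosb* (-0.18) and *Egr1* (-0.18) in Tregs with equal weights, and for *Atf3* in the joined cDCs (-0.52) in cells with fewer than 2 UMIs of dividing cell genes. The cause was not tested. Counting ratios that were not called, 9 of 79 signs changed in those cells and 8 with equal weights. Examples are *Junb* in CD8 T cells (-0.06 to 0.45 and 0.17), *Fos* in NK cells (-0.18 to 0.22) and *Nr4a1* in C1q macrophages (0.20 to -2.99). Of 32 calls (joined cDCs included), 11 were lost in cells with few dividing cell UMIs, 8 with equal weights and between 0 and 3 under each other alternative. The summed log2 ratio kept its sign in T cells, NK cells, classical monocytes and joined cDCs under every alternative. It ranged from 0.12 to 0.52 in CD8 T cells, 0.21 to 0.41 in classical monocytes and 0.30 to 0.66 in Tregs. It lay between -0.05 and 0.08 in C1q macrophages and between -0.11 and 0.08 in nonclassical monocytes. Of 70 shares of creatine cells, thinning to 1000 UMIs moved 52 and no thinning 68 beyond their intervals. Leaving out classical monocytes with a nonclassical marker, or barcodes shared by both libraries, was added after seeing the data, as was joining the cDC gates. Depth limits *Atf3* in lymphocytes and all genes in CD4 Tconv, where *Dusp1* went from -1.49 with stricter gates to -0.35 in the cells with few dividing cell UMIs. No paired analysis was possible because each group has 1 library.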
